A study of Drosophila melanogaster with 18 samples.

Results

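The response of Drosophila Schneider 2 (S2) cells to dithiothreitol (DTT) was examined after RNA interference (RNAi) against XBP-1. S2 cells are an embryonic line with features of blood cells. Of the 18 arrays of the study, the 6 used for this response were those whose titles name XBP-1 RNAi, 3 without DTT and 3 with it, lettered A, B and C. The cells had been given about 15 µg/ml of double-stranded RNA in each of 3 rounds. They then received 2 mM DTT for 7.4 hours or a mock treatment. The other 12 arrays held 3 with and 3 without DTT from control cells, which had no RNAi, and as many from cells labelled IRE1 RNAi. The cells labelled IRE1 RNAi also received double-stranded RNA at about 15 µg/ml. On each array, Cy5-labelled cDNA from 16 µg of total RNA met a common Cy3-labelled reference made from S2 cells with and without DTT and from embryos. Since the control had no double-stranded RNA, comparison with it cannot tell an effect of XBP-1 loss from one of such RNA as such. The letters are not said to mark separate cultures, so every p-value below reflects the spread among these arrays, which could be technical only.

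DTT is a reducing agent that breaks disulphide bonds and so leaves proteins unfolded in the endoplasmic reticulum (ER). IRE1, an ER membrane kinase and nuclease, then splices XBP-1 mRNA, whose product is a transcription factor that raises genes for ER chaperones, secretory transport and degradation of unfolded proteins. IRE1 also cleaves other mRNAs at the ER membrane, many of them for secreted proteins, while the kinase PEK (PERK) slows translation and favours the factor crc (ATF4). The comparison asks which parts of the response to DTT were present when XBP-1 was the target of RNAi.

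Values below are log2 ratios of sample to reference, each centred on the median of its array. Neither the base of the logarithm nor the numerator is stated, so log2 and Cy5 over Cy3 are readings, and a natural logarithm was not excluded. Errors after ± are standard errors from limma unless called SD. A gene is said to have risen or fallen where limma's Benjamini-Hochberg adjusted p was under 0.05 and the change at least 2-fold. The 6 arrays held 4851 (no DTT, B) to 6543 (no DTT, A) of 7257 probes, and Pearson's r between arrays within a group was 0.803 to 0.876 without DTT and 0.639 to 0.83 with it. A ratio in whole cultures does not tell fewer expressing cells from less RNA per cell. Of the 21 hemocyte markers, 12 were tested, and srp and Pxn had a value on 3 of 3 arrays in each group. Hml had none on the 6 arrays and eater 1. Of 11 markers of other tissues tested, 3 fell, all of them actins (Act88F, Act87E and Act57B) whose probes may also bind other actin mRNAs, and 8 were not called.

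The RNAi target was examined first. The first Xbp1 probe stood at -1.12, -0.70 and -1.37 (A, B and C) under XBP-1 RNAi without DTT. Control cells without DTT gave -0.37, -0.09 and -0.95 at that probe. The second Xbp1 probe read -0.76, -0.61 and -0.99 under XBP-1 RNAi and -0.09, 0.05 and -0.45 in control. At the second Xbp1 probe all RNAi values lay below all control values, while at the first the groups overlapped. Within letters, RNAi minus control was -0.75, -0.61 and -0.42 (A, B and C) at the first Xbp1 probe and -0.67, -0.66 and -0.54 at the second, below 0 in each letter. The differences were -0.59 ± 0.17 and -0.62 ± 0.18, each with an adjusted p of 0.359 in limma, so neither passed. That was also the smallest adjusted p among the 5719 probes compared between these groups. Of these, 0 were called in limma (0%), and 591 had an unadjusted p under 0.05. The DTT effect under XBP-1 RNAi was 0.43 ± 0.17 (limma's adjusted p = 0.0408) at the first Xbp1 probe and 0.26 ± 0.18 (adjusted p = 0.254) at the second, both short of 2-fold. The arrays labelled IRE1 RNAi did not show a lower Ire1 probe: it read 2.22, 2.28 and 0.62 without DTT there, against -0.82, -0.22 and -0.19 in control. That group is named below by its label only.

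Under XBP-1 RNAi DTT moved a wide set of genes. Of 5646 probes tested, 1077 were called (19.1%), of which 512 rose (9.07%) and 565 fell (10.0%), with a median change over all probes of 0.12. The 9.07% and 10.0% are the shares to set beside the counts of risen and fallen list members below. Rises of at least 4-fold numbered 105 and falls of that size 87. As deposited, without centring, 361 rose and 773 fell, and the median change was -0.08. The groups with and without DTT did not overlap for 477 of the 512 probes that rose and 554 of the 565 that fell, against 24.8% of all tested probes lying wholly above and 22.3% wholly below. That separation follows largely from choosing the called probes on the same arrays, so it is no separate support for the calls. Differences between same-letter arrays correlated across probes with r of 0.785 to 0.845, as a description over probes that share these arrays. Among 104 genes with several probes, 88 had the same call at each, and 0 had 1 probe that rose and 1 that fell. Most of the 88 were not called at any probe. Genes with both called and uncalled probes, such as Meltrin (-0.05 and 2.30), outnumbered those called at every probe.

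The largest change of a named gene was that of Ldh, lactate dehydrogenase. Ldh read -3.13 and -2.63 without DTT (A and B, with no value for C) and 3.28, 3.95 and 2.96 with it. Every array with DTT stood above those without, a change of 6.37 ± 0.22 or 82.9-fold (adjusted p = 2.72e-12). CG3348 moved from -1.14, -2.59 and -1.01 to 4.15, 4.38 and 3.71, with no overlap, a rise of 5.66 ± 0.32. Thor, the 4E-BP inhibitor of translation initiation, went from -1.81, -1.21 and -1.47 to 3.40, 2.81 and 2.66. The values of Thor did not overlap, and the rise was 4.45 ± 0.26, or 21.9-fold (adjusted p = 3.72e-10). Among genes with a value on all 6 arrays and one direction in every letter, the other largest rises were Dgp-1 at 4.85, which lies between CG3348 and Thor, the receptor tyrosine phosphatase Ptp52F at 4.05, CG6330 at 3.93, MFS3 at 3.80 and ImpL2, a secreted insulin-binding protein, at 3.63. The others were the glutathione transferases GstE8, GstE7, GstE9, GstE11 and GstE6, between 3.61 and 4.03.

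The largest falls included those of Agpat2, the cytosolic Hsp90 gene Hsp83 and Catsup. Agpat2, an acyltransferase of phosphatidic acid synthesis, stood at 1.69, 1.12 and 1.02 without DTT and at -1.40, -2.65 and -3.81 with it. All 3 values with DTT were lower, a fall of 14.9-fold (-3.90 ± 0.30, adjusted p = 1.74e-08). Hsp83 dropped from 1.78, 1.56 and 2.00 to -1.57, -2.04 and -1.18, again without overlap (-3.38 ± 0.21). Catsup, of a zinc transporter family, moved from 1.12, 0.74 and 0.83 to -2.10, -2.52 and -2.43, a change of -3.25 ± 0.20. The other large falls were those of Idgf6, Idgf2, SPARC, the cathepsin-like protease CtsK1, Msr-110, CG6293, the collagen IV gene vkg, the serine palmitoyltransferase subunit Spt-I and the ER fucosyltransferase O-fut1, between -2.91 and -3.69.

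**Figure D1:**
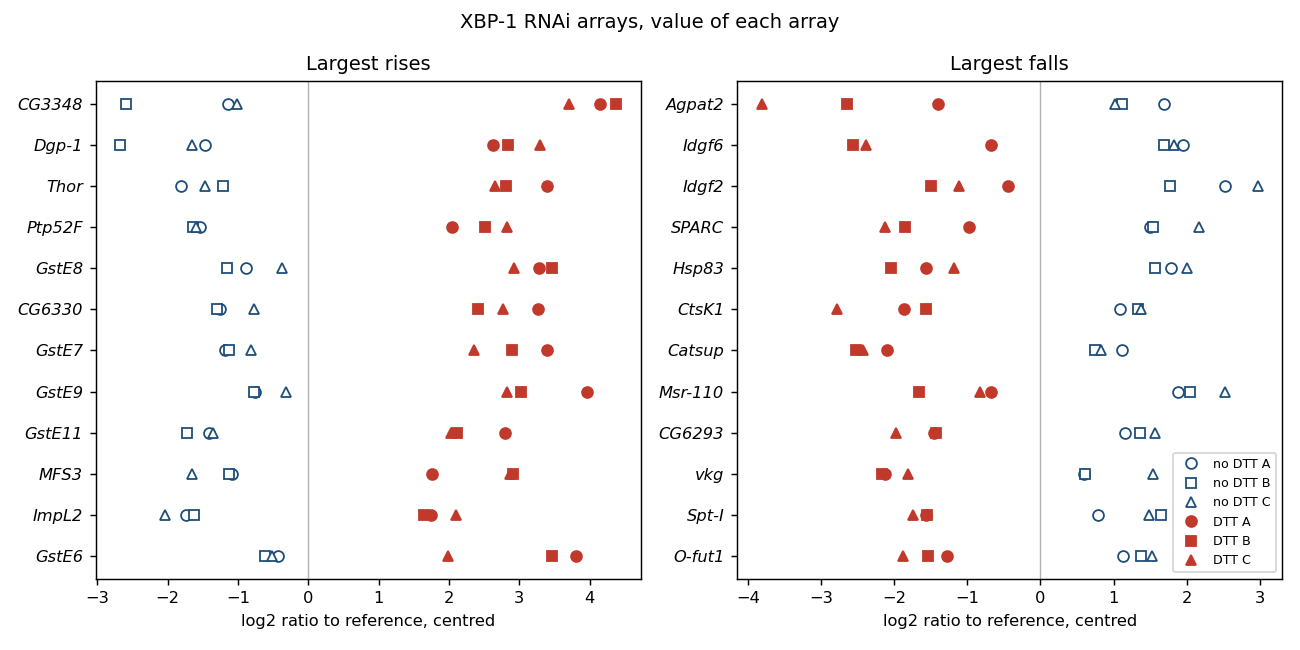
Centred log2 ratio to the reference (horizontal axes) on each of the 6 XBP-1 RNAi arrays, for the 12 largest rises (left) and the 12 largest falls (right) among named genes measured on all 6 arrays. Open symbols are arrays without DTT, filled symbols arrays with DTT, and the shape gives the letter; for each gene the groups are apart.

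Regulators of the unfolded protein response moved unevenly. Of 14 on the array, 9 were tested: 3 rose, 1 fell and 5 were not called, with a median of 0.86 against 0.12 for all probes. Besides Thor, the factor crc, the fly ATF4, went from -1.66, -2.23 and -0.76 to -0.21, -0.11 and 0.22. The crc groups did not overlap, and it rose by 1.52 ± 0.27 (adjusted p = 0.000152). The pseudokinase trbl rose by 1.37 ± 0.19, and S2P, the site-2 protease that cuts membrane-bound transcription factors, fell by 1.08 on the log2 scale. With replicate A without DTT left out, S2P stood at -0.98 and was not called. Ire1 changed by 0.55 ± 0.40 (adjusted p = 0.27) and was not called. Atf6, an ER membrane transcription factor, had no value without DTT and -1.80, -0.61 and -0.48 with it, so it was not tested. PEK had no value on these arrays.

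Most genes of ER chaperones and folding enzymes were lower with DTT under XBP-1 RNAi. Of 17 tested, 9 fell, 2 rose and 6 were not called, with a median of -1.05 against 0.12 for all probes. The shv probe counted here was not called (-0.72), while another shv probe fell (-1.02). Pdi, a protein disulphide isomerase, went from 1.33, 1.04 and 0.86 to -2.09, -1.83 and -1.17. No Pdi value with DTT reached those without, a 6.84-fold fall (-2.77 ± 0.24, adjusted p = 3.37e-08). ERp60, another disulphide isomerase, changed by -2.80 ± 0.22, and prtp by -2.82 ± 0.25. The lectin chaperone Calr (calreticulin) changed by -1.66, the 2 calnexins Cnx14D and Cnx99A by -1.14 and -1.05, and Gp93, the ER Hsp90, by -1.21. Fkbp14, a prolyl isomerase, and ERp44 fell by 2.08 and 1.61 on the log2 scale.

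The 2 that rose act together. Sil1, the nucleotide exchange factor of BiP, went from -1.32, -1.84 and -1.96 to -0.55, -0.17 and 0.35, without overlap (1.58 ± 0.25, adjusted p = 5.52e-05). Hsc70-3, the ER Hsp70 BiP, read -2.64, -2.76 and -1.78 without DTT and -1.71, -1.78 and 0.59 with it. The Hsc70-3 groups touched at -1.78, and replicate C with DTT stood well above the other 2. The change of Hsc70-3 was 1.43 ± 0.37 (adjusted p = 0.00455). With replicate C with DTT left out, Hsc70-3 changed by 0.78 (adjusted p = 0.0474) and was not called, nor was it with quantile normalization (1.03, adjusted p = 0.0698). Ero1L, the oxidase that recharges disulphide isomerases, changed by 0.79 ± 0.31 and its groups overlapped. Leaving out replicate A without DTT (1.11) or replicate A with DTT (1.08) took Ero1L past 2-fold.

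In control cells the same genes moved otherwise. Of the 17, 8 rose and 9 were not called there (in control 7.76% of all probes rose and 7.76% fell), with a median of 0.86, and the difference between the responses was called for 16, each lower under XBP-1 RNAi. This stands against 3.96% of the 5483 probes called lower in that comparison. The median difference over the 17 was -1.83, against 0.02 for all probes. Pdi changed by -0.33 in control, a difference of -2.45 ± 0.34 (adjusted p = 0.000248). Ero1L rose by 3.38 in control, a difference of -2.59 ± 0.43 (adjusted p = 0.00106), and Gp93 rose by 1.20, a difference of -2.41 ± 0.37. Hsc70-3, which rose by 2.80 in control, was the 1 whose difference was not called (-1.37). It was called as deposited (-1.68), with blocks within arms and when replicate C with DTT of XBP-1 RNAi was left out (-2.02). Without the letter as a block, 9 of the 17 differences were called. On the arrays labelled IRE1 RNAi, 3 of the 17 rose and 4 fell, with a median of -0.06, where 6.24% of all probes rose and 8.21% fell. The response under XBP-1 RNAi was called lower than there for 5, namely Pdi, ERp60, Calr, ERp44 and shv, against 0.849% of all probes.

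**Figure D2:**
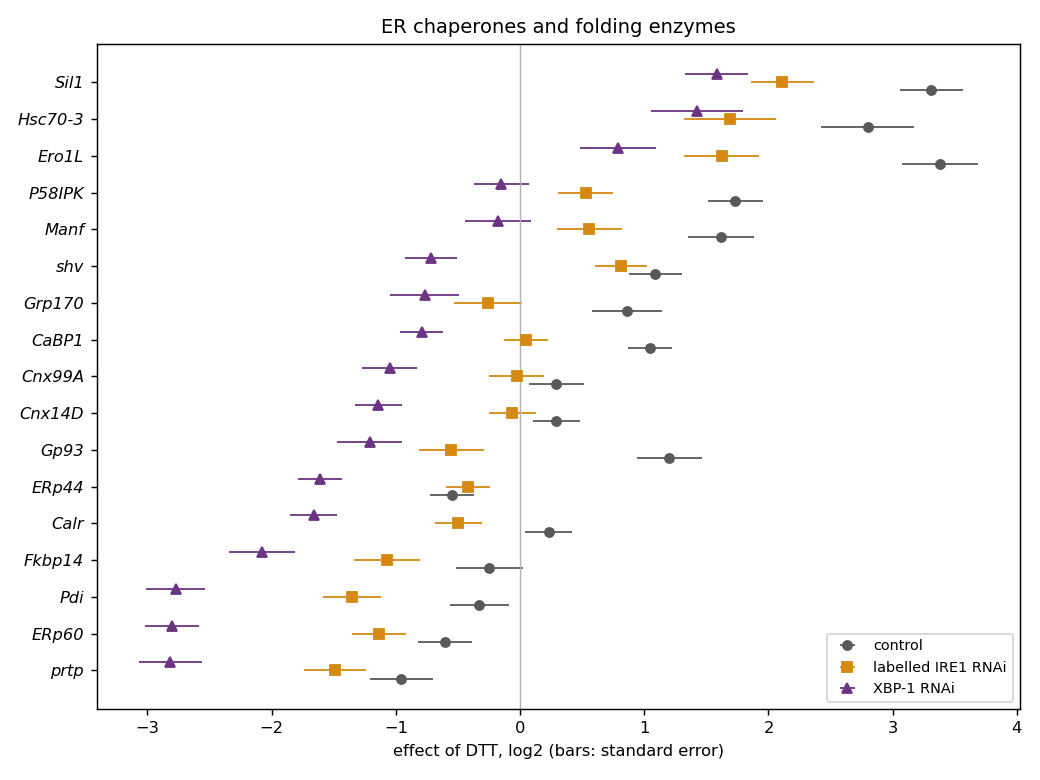
Effect of DTT (horizontal axis, log2 difference with its limma standard error as bars) on the 17 tested ER chaperones and folding enzymes in control cells, on arrays labelled IRE1 RNAi and under XBP-1 RNAi, each with 3 arrays with and 3 without DTT. For all 17 genes the XBP-1 RNAi effect is the lowest of the 3, and Pdi runs from -0.33 in control to -2.77 under XBP-1 RNAi.

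Genes for bringing proteins into the ER fell in part. Of 20 tested, 9 fell and 11 were not called, with a median of -0.79. Sec61alpha, the pore of the translocation channel, went from 0.66, 0.82 and 0.93 to -1.16, -1.16 and -1.21, with tight groups far apart (-1.98 ± 0.18). SrpRalpha, the receptor for the signal recognition particle, fell by 1.91 on the log2 scale, Tapdelta, of the translocon-associated complex, by 2.28, the signal peptidase subunit Spase22-23 by 1.85, and Sec63, a partner of the channel, by 1.68. The next split, like the other complexes given below, was chosen after the values were seen, so it only describes them. Among 6 genes of the receptor and the Sec61 channel, 5 fell, with a median of -1.83. Of 7 genes of the signal recognition particle, 0 were called in limma, with a median of -0.28 and 2 with an unadjusted p under 0.05. Trp1, the Sec62 homologue, changed by -0.48 and was not called, but it rose by 2.02 in control, a difference of -2.50 ± 0.38 (adjusted p = 0.000651). In all, 11 of 19 translocation genes had a lower response than in control, against 3.96% of all probes. That number was 3 without the letter block and 7 when replicate C with DTT was left out.

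N-glycosylation genes, which build and trim the sugar chains of ER proteins, fell in 11 of 24 tested and rose in 2, with a median of -0.92. GCS2beta, the beta subunit of glucosidase II, went from 0.74, 0.48 and 1.24 to -1.52, -1.89 and -2.01, without overlap (-2.63 ± 0.23). OstDelta, of the oligosaccharyltransferase, fell by 2.31 on the log2 scale, alpha-Man-Ia by 1.97 and Stt3B by 1.84. Of the 6 oligosaccharyltransferase genes, 4 fell. The response was lower than in control for 8 of 24 N-glycosylation genes and higher for 1, UGP (1.16). Over all probes 3.96% were lower and 2.23% higher. The 8 became 2 without the letter block, and the call of UGP was lost there, as deposited (0.85), without eBayes and when replicate A or B of either group was left out. Gfat2, of hexosamine synthesis, changed by -1.67 here and 0.71 in control, a difference of -2.38 ± 0.39 (adjusted p = 0.00105).

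Of 12 genes of ER-associated degradation, which returns unfolded proteins to the cytosol, 3 fell and 9 were not called, with a median of -0.50. The 3 were Ufd1 (-1.28), its partner ATPase TER94 (-1.02) and Edem1, close to the 2-fold limit. Ufd1 had overlapping groups. The call of TER94 was lost when replicate B without DTT (-0.87) or replicate C with DTT (-0.99) was left out, and with quantile normalization (-0.97). That of Edem1 was lost when replicate C without DTT was left out (-0.83) and without the letter block (-0.91). Centring on complete probes ended the calls of TER94 (-0.95) and Edem1 (-0.93). That centring and leaving out replicate C with DTT each left 1 called. Herp changed by 0.73 and rose by 2.02 in control, a difference of -1.30, which was not called without the letter block. The response of 5 of the 12 degradation genes was lower than in control, and of 1 without the letter block. With the block, 3.96% of all probes were lower than in control.

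Transport genes between ER and Golgi were mostly not called within the XBP-1 RNAi arrays: of 27 tested 5 fell, 1 rose and 21 were not called, with a median of -0.26. CHOp24, a p24 cargo receptor, fell by 2.71 on the log2 scale, KdelR, which retrieves ER residents, by 1.41, and epsilonCOP by 1.25, while the GTPase Rab1 rose by 1.08. With replicate A without DTT or replicate B with DTT left out, 0 transport genes rose in limma, nor did any as deposited, and 2 rose with replicate A with DTT left out. The difference from control was wide here. The response was lower under XBP-1 RNAi for 15 of the 27 (5 without the letter block), with a median difference of -1.19. Over all probes 3.96% were called lower. betaCOP, a COPI coat protein, moved by -0.76 after XBP-1 RNAi but rose by 1.44 in control (difference -2.19). Of 7 COPI coat genes 6, and of 6 COPII coat genes 3, had a lower response than in control.

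Genes of matrix and other secreted proteins fell as a group: 13 of 21 fell, 1 rose and 7 were not called, with a median of -1.37. SPARC, a collagen-binding matrix glycoprotein, went from 1.50, 1.54 and 2.17 to -0.97, -1.85 and -2.13, without overlap (-3.39 ± 0.28, adjusted p = 2.06e-08). Idgf6 and Idgf2, chitinase-like growth factors, fell by 3.69 and 3.44 on the log2 scale, and the laminin gene LanB2 by 3.07. All 5 tested genes of laminin, collagen IV and SPARC fell, as did 4 of 5 imaginal disc growth factors. In control 13 of 22 fell as well, with a median of -1.82. Over all probes, 2.23% were called higher under XBP-1 RNAi than in control. The difference between XBP-1 RNAi and control was called for 1 of 21, ImpL2, which rose more under XBP-1 RNAi (3.63 against 2.19, a difference of 1.44, limma's adjusted p = 0.0359). The call of ImpL2 was lost as deposited (1.13), with quantile normalization (0.92), without the letter block, without eBayes and when any 1 of the 3 arrays without DTT or replicate C with DTT was left out (1.13 to 1.46). With replicate B with DTT left out, 2 of the list were called. The median difference was 0.27, or -0.03 as deposited.

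Lysosomal genes fell in 6 of 12 tested, with a median of -1.04. CtsL1, a cathepsin L, went from 2.25, 1.57 and 2.10 to -0.56 and -1.75 (A and B, with none for C), without overlap (-3.11 ± 0.24). The cathepsin CtsB fell by 2.67 on the log2 scale, the hexosaminidase Hexo2 by 1.83 and the cholesterol carrier Npc2a by 1.80. Of 11 subunits and partners of the V-ATPase, the proton pump of acidic organelles, 5 fell, among them ATP6AP2 (-1.55), Vha36-1 (-1.51), VhaSFD (-1.34) and VhaAC45 (-1.28). With replicate C with DTT left out, 3 did. In control 7 lysosomal and 5 V-ATPase genes fell.

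**Figure D3:**
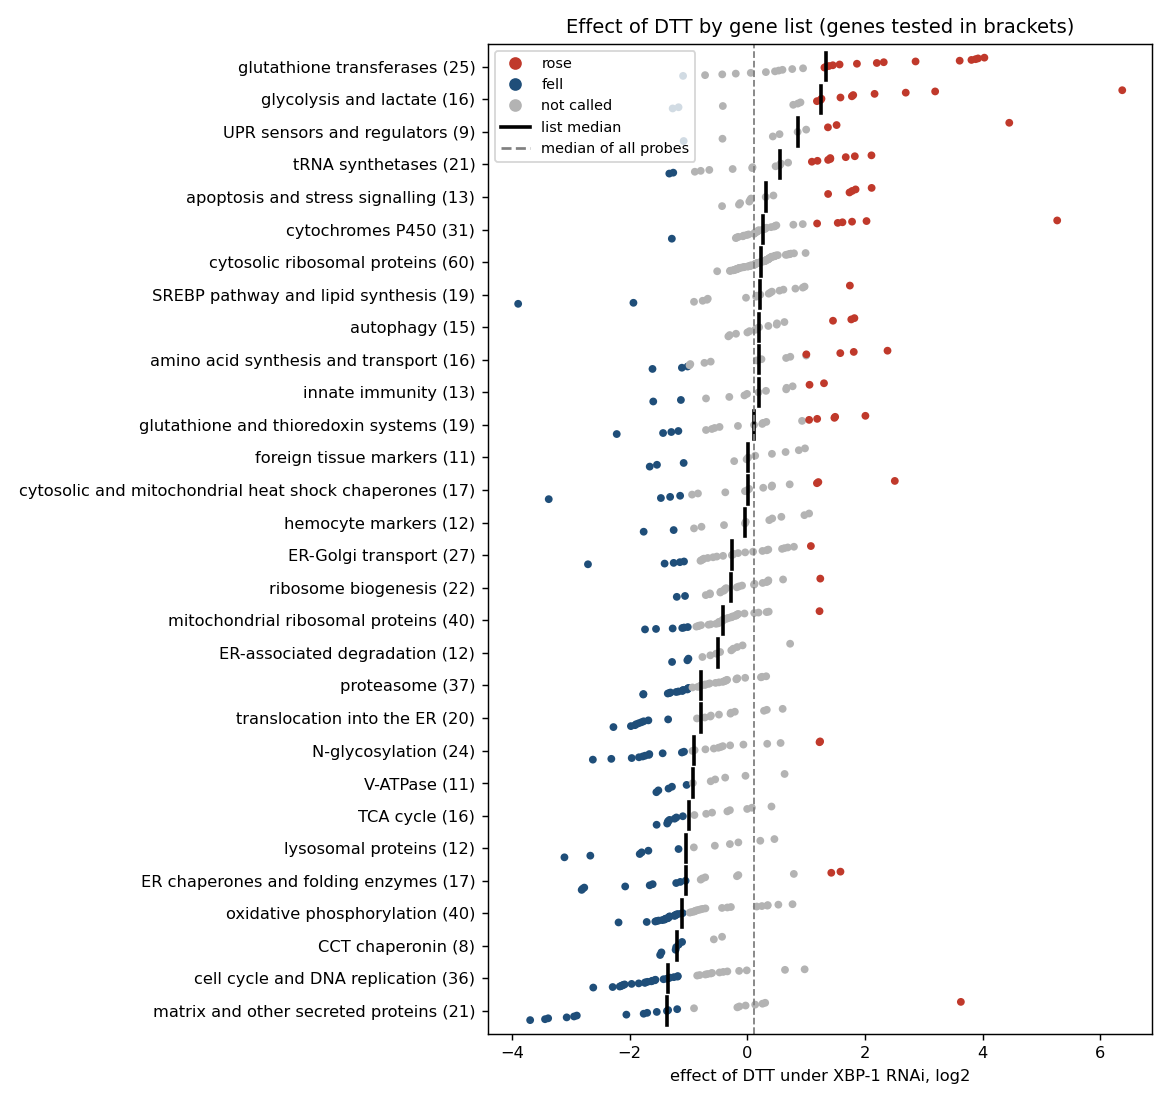
Effect of DTT under XBP-1 RNAi (horizontal axis, log2) for every tested gene of 30 lists, with black bars for list medians and a dashed line for the median of all probes (0.12). Red points rose, blue points fell and grey points were not called; the medians run from -1.37 for matrix and other secreted proteins to 1.34 for glutathione transferases.

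Energy metabolism moved in opposite directions in different pathways. Of 16 genes of glycolysis and lactate production, 10 rose and 2 fell, with a median of 1.25. Besides Ldh, Tret1-1, a trehalose transporter, rose by 3.19, and Pfk, the phosphofructokinase, went from 0.09, -0.38 and -0.80 to 1.72, 2.68 and 2.59 (2.69 ± 0.26). Pfk values did not overlap, with replicate A the lowest of the 3 with DTT. Tpi, the triosephosphate isomerase, rose by 2.16. Of 16 TCA cycle genes 8 fell, with 14 of 16 changes below 0, among them the succinate dehydrogenase subunit SdhA (-1.54), ScsbetaG (-1.36), the aconitase mAcon1 (-1.35) and the citrate synthase kdn (-1.35). With replicate C with DTT left out, 5 did. Of 40 oxidative phosphorylation genes 21 fell and 19 were not called, with a median of -1.11. The complex I subunits ND-20 and ND-75 fell by 2.19 and 1.71 on the log2 scale and UQCR-C2 of complex III by 1.56. Of 10 ATP synthase genes 7 fell.

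Many detoxification genes were higher with DTT. Of 25 glutathione transferases, which attach glutathione to reactive compounds, 14 rose, 1 fell and 10 were not called, with a median of 1.34. GstE8 went from -0.88, -1.16 and -0.37 to 3.28, 3.47 and 2.93, without overlap (16.3-fold, adjusted p = 5.14e-10). GstD9 went from -0.02, -0.53 and -0.07 to 2.55, 2.76 and 2.65 (2.86 ± 0.21), also apart. Of 11 epsilon-class genes 7 rose and 1, GstE12, fell (-1.09). With replicate C without DTT or replicate C with DTT left out, 0 of the 25 fell in limma. Of 8 delta-class genes 7 rose. Near-identical family members may share a probe's signal, which was not tested. In control 16 of the 25 rose. The difference between the responses was called for 1 of 25, a share near the 3.96% of all probes called lower. This was GstO1 (-1.08, limma's adjusted p = 0.018). That call was lost as deposited (-1.39), when centred on complete probes and without the letter block, and 2 of the list were called lower with quantile normalization.

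Of 31 cytochromes P450 tested, 6 rose and 1 fell. Cyp6a20 read -2.44 and -2.41 (A and C) without DTT and 2.03, 2.98 and 3.32 with it, a rise of 5.27 ± 0.36. Cyp6d4 rose by 2.03, Cyp28d1 by 1.78 and Cyp6a8 by 1.62. Many P450 spots were missing: the 6 became 2 when replicate A without DTT was left out, 1 for replicate C without DTT and 3 for replicate C with DTT. The 1 that fell was not called when any of these, or replicate B with DTT, was left out. The glutathione and thioredoxin systems were split, with 5 of 19 up and 4 down. The Nrf2 homologue cnc rose by 2.01 and catalase (Cat) by 1.49, while the ER peroxiredoxin Prx4 changed by -2.22 and Sod1, the cytosolic superoxide dismutase, by -1.43.

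Genes that charge tRNAs rose in 8 of 21 tested and fell in 2, with a median of 0.56. Over all probes 9.07% rose and 10.0% fell, so the 2 falls are near the general share. AspRS went from -0.34, -0.35 and -0.30 to 1.11, 2.46 and 1.77, without overlap (2.11 ± 0.22), TrpRS rose by 1.83 and ValRS by 1.67, while beta-PheRS changed by -1.33. AsnRS changed by 0.09 and was not called. With replicate A without DTT left out, 5 tRNA synthetase genes rose. Of 16 genes of amino acid synthesis and transport 4 rose and 3 fell: the glutamine synthetase Gs2 rose by 2.38, aay, of serine synthesis, by 1.81 and Sam-S, the S-adenosylmethionine synthetase, by 1.58. The 3 that fell became 1 when replicate C with DTT was left out, 5 when replicate B without DTT or replicate A with DTT was, and 6 as deposited. Shmt, the serine hydroxymethyltransferase, changed by -1.61. Of 60 cytosolic ribosomal protein genes 0 were called in limma, with changes between -0.51 and 0.99 and 10 with an unadjusted p under 0.05. Mitochondrial ribosomal protein genes fell in 6 of 40 and rose in 1, led by mRpL2 (-1.74), mRpL51 (-1.55) and mRpL9 (-1.27), with mRpL28 up by 1.23. With replicate C with DTT left out, 2 of them fell. Of 22 ribosome biogenesis genes Nop56 (-1.20) and nclb (-1.06) fell and Myc rose (1.24, or 0.99 and not called with quantile normalization). Neither count exceeds the share over all probes. The call of nclb was lost when replicate A without DTT (-0.96) or replicate C with DTT (-0.91) was left out and when centred on complete probes (-0.99).

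Cell division genes fell broadly: 23 of 36 fell and 13 were not called, with a median of -1.36. All 6 genes of the MCM helicase, which opens DNA for replication, fell, with a median of -2.12. Mcm3 read 0.22, 0.26 and 0.34 without DTT and -2.08 and -2.20 (B and C) with it (-2.62 ± 0.27). The mitotic phosphatase stg went from 0.21, 0.72 and 0.78 to -1.30, -1.95 and -1.91, with no overlap (-2.29 ± 0.21), and PCNA, the replication clamp, fell by 2.17 on the log2 scale and Mcm6 by 2.15. In control 21 of 36 fell. The difference between the responses was called higher for 1 of 34 genes and lower for 1. Over all probes those shares were 2.23% and 3.96%. The response of stg was less negative under XBP-1 RNAi than in control (-3.44, a difference of 1.15, limma's adjusted p = 0.0241), and that of Mcm3 more so (-1.35 in control, a difference of -1.27, adjusted p = 0.0359). The call of stg was lost as deposited, without the letter block, without eBayes and when replicate A was left out without DTT (0.82) or with it (1.02). The call of Mcm3 was lost as deposited, without the letter block, with blocks within arms, without eBayes and when replicate A without DTT was left out (-1.09), and Mcm3 could not be tested without replicate B or C with DTT.

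Cytosolic folding and degradation machines were lower in part. Of 8 CCT chaperonin genes 6 fell, with a median of -1.19, led by CCT4 (-1.48), CCT1 (-1.46), CCT7 (-1.22) and CCT3 (-1.21). With replicate C with DTT left out 3 fell, and the change of CCT3 was then -0.91 and that of CCT7 -0.99; CCT7 was also not called when replicate A without DTT was left out. Of 17 heat shock chaperones 3 rose (1 without the letter block) and 4 fell: the small heat shock gene Hsp26 rose by 2.51, and DnaJ-1 and Stip1, partners of Hsp70 and Hsp90, fell with Hsp83, by 1.47 and 1.31 on the log2 scale. Of 37 proteasome genes 14 fell and 23 were not called, with a median of -0.78. Prosalpha4 (-1.77), Prosbeta7 (-1.77), Rpn7 (-1.35) and Rpt4 (-1.32) led. The 14 became 9 when replicate A without DTT was left out and 8 for replicate C with DTT.

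Of 13 genes of apoptosis and stress signalling, 5 rose and 8 were not called: kay, the fly Fos (2.11), Dronc, the initiator caspase (1.84), puc, the JNK phosphatase (1.78), Gadd45 (1.74) and p53 (1.37). The death-inducing gene rpr had no value without DTT and 1.28, 2.40 and 3.17 with it. Another death inducer, hid, had -1.18, -1.18 and -0.70 with DTT alone. Neither could be tested. Of 15 autophagy genes 3 rose, namely the kinase Atg1 (1.82), the ubiquitin-like Atg8a (1.77) and Atg17 (1.46). Over all probes 9.07% rose and 10.0% fell, and the lipid synthesis counts were near or below these shares. Of 19 lipid synthesis genes 1 rose, Hmgs of the mevalonate pathway (1.74), and 2 fell, Agpat2 and AcCoAS (-1.94). The count that rose was 3 when replicate A without DTT was left out, 2 when replicate C with DTT was, 2 with quantile normalization and 3 when centred on complete probes. Of 13 innate immunity genes 2 rose and 2 fell: PGRP-SA, a receptor for bacterial peptidoglycan, changed by -1.60, Mcr by 1.30, Tep2 by -1.13 and cact, the fly IκB, by 1.06. The call of cact was lost as deposited (0.87) and when replicate B without DTT (0.98) or replicate C with DTT (0.98) was left out, and that of Tep2 when replicate B with DTT was (-0.77). When replicate B without DTT was left out 0 immunity genes rose in limma, and 1 did when replicate A without DTT or replicate C with DTT was. The second Tep2 probe was not called (-0.97). Of 12 hemocyte markers 2 fell, Nplp2 (-1.76) and the scavenger receptor crq (-1.25).

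In all, 17 probes had 3 values with DTT and 0 without, and 9 the reverse. The 9 included Ts, the thymidylate synthase (1.10, 1.10 and 1.20 without DTT), FASN1, a fatty acid synthase (0.73, 0.99 and 0.49), and EMC2B, of the ER membrane protein complex (0.17, -0.33 and 0.56). For EMC2B control cells had values on all 3 arrays with DTT (1.06, 1.46 and 1.15). A spot was removed for weak signal or poor quality, so a missing value is not a level.

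The response under XBP-1 RNAi was set against that in control. Of the probes tested in both, 247 rose in both, which is 49.2% of those that rose under XBP-1 RNAi and 56.4% of those in control, and 309 fell in both (55.4% and 70.7%). The 2 responses share no array, but they share the reference and, in the model, the letter terms and each probe's estimate of spread. The difference between them was called for 339 of 5483 probes (6.18%): 217 were lower (3.96%) and 122 higher (2.23%) under XBP-1 RNAi. Of the 217, 83 rose in control and were not called under XBP-1 RNAi, and 56 fell under XBP-1 RNAi and were not called in control. Without the letter block 69 were lower and 13 higher. Among the XBP-1 RNAi arrays, leaving out replicate A without DTT took the 122 to 57, replicate B without DTT to 73 and replicate C with DTT to 54.

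The 8 largest lower differences among genes measured on all 12 arrays included Trp1, Ero1L, Pdi, Gp93 and Gfat2, given above. scf, a reticulocalbin-type calcium-binding protein, went from 1.02, 0.43 and 0.77 to -1.27, -2.50 and -0.87 under XBP-1 RNAi. All values with DTT lay below those without, a change of -2.29 against 0.50 in control (difference -2.79 ± 0.40, adjusted p = 0.000351). CG2004 changed by -0.19 against 2.54 (difference -2.73 ± 0.27, adjusted p = 1.87e-05) and sel, seele, by -1.06 against 1.30 (difference -2.36 ± 0.31, adjusted p = 0.000178). The fall of sel under XBP-1 RNAi was not called when replicate B was left out without DTT (-0.95) or with it (-0.91), nor without the letter block or when centred on complete probes (-0.99).

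Higher responses than in control included those of Thor and CG3348. The RNA-binding protein msi went from -2.44, -1.91 and -2.18 to -0.46, -0.98 and 0.36, without overlap, a rise of 1.82 against -0.34 in control (difference 2.15 ± 0.46, adjusted p = 0.00785). Cam, calmodulin, rose by 1.53 against -0.59 (difference 2.12 ± 0.53, adjusted p = 0.0191). Thor rose by 4.45 against 2.61 (difference 1.85 ± 0.37, adjusted p = 0.00497) and CG3348 by 5.66 against 3.89 (difference 1.77 ± 0.46, adjusted p = 0.0222). The GTPase Rac2 changed by 0.33 under XBP-1 RNAi, where its groups overlapped, and by -1.48 in control (difference 1.81 ± 0.30, adjusted p = 0.00109). Akap200, an anchor of protein kinase A, be and Swip-1 had differences of 1.78, 1.78 and 1.76; the second Akap200 probe was not called (0.41). With quantile normalization the differences of CG3348 (0.53), Thor (1.03), Cam (1.88) and Akap200 (1.54) were not called. Cam was also not called when replicate A without DTT or replicate C with DTT was left out, and CG3348 when replicate B of either group was. The call of Akap200 was lost without any 1 of the XBP-1 RNAi arrays except replicate B with DTT.

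**Figure D4:**
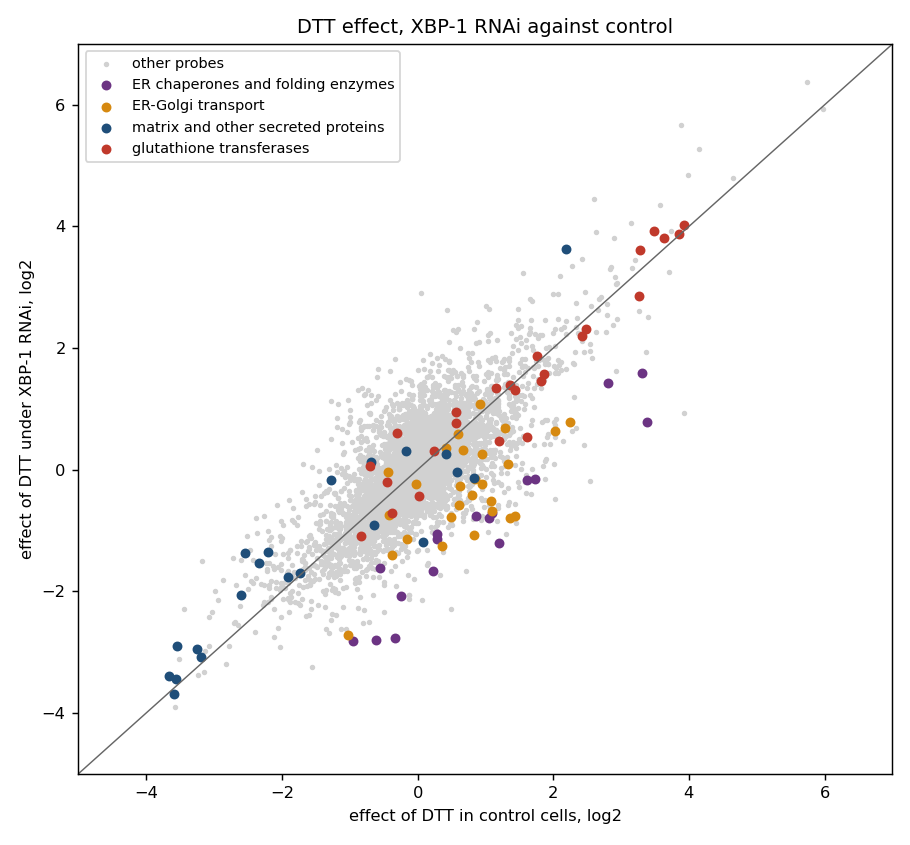
Effect of DTT in control cells (horizontal axis, log2) against that under XBP-1 RNAi (vertical axis, log2), with 1 point per probe and a line where both are equal. ER chaperones and folding enzymes and ER-Golgi transport genes lie mostly below the line, with median differences of -1.83 and -1.19. Glutathione transferases and matrix genes lie near it as plotted, with median differences of 0.03 and 0.27 (-0.28 and -0.03 as deposited). With quantile normalization the median difference of the glutathione transferases was -0.405.

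The response was then set against that on arrays labelled IRE1 RNAi. Of probes tested in both, 282 rose in both (57.1% of those under XBP-1 RNAi and 81.3% of those labelled IRE1 RNAi) and 355 fell in both (64.1% and 75.9%). The difference was called for 47 of 5417 probes (0.868%): 46 were lower under XBP-1 RNAi (0.849%) and 1, zormin, higher (0.0185%). Of the 46, 33 fell under XBP-1 RNAi, 24 of which were not called on the arrays labelled IRE1 RNAi, and 10 rose on those arrays and were not called under XBP-1 RNAi. Leaving out replicate B of XBP-1 RNAi took the 46 to 23 without DTT and to 22 with it, and leaving out the letter block to 8. With DTT, replicate A labelled IRE1 RNAi held 3755 values, the fewest of the 18 arrays, and 38 were lower when it was left out. zormin has 3 probes, of which 1 was called, and the called probe was not called, or had too few values to be tested, when any 1 of the 6 XBP-1 RNAi arrays was left out.

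Some of the 46 fell under XBP-1 RNAi and in control, among them SPARC, Tsp42Ee, Hydr2 and Agpat2. SPARC changed by -3.39 under XBP-1 RNAi and -3.66 in control, but by -0.75 on the arrays labelled IRE1 RNAi (difference -2.63 ± 0.39, adjusted p = 0.00191). The tetraspanin Tsp42Ee changed by -2.15, -2.95 and 0.04 in the same order (difference -2.19 ± 0.41, adjusted p = 0.0137), and Hydr2, of a hydrolase family, by -1.90, -2.68 and 0.24 (difference -2.14 ± 0.29, adjusted p = 0.000758). Tsp42Ee went from 0.85, 0.93 and 1.59 to -0.62, -1.57 and -0.89 under XBP-1 RNAi, without overlap. Agpat2 (-3.90, -3.58 and -1.85) had a difference of -2.05, which was not called when replicate B or C of either XBP-1 RNAi group, or replicate A with DTT labelled IRE1 RNAi, was left out. Tsp42Ee was not called when replicate B of XBP-1 RNAi without DTT was (-2.03).

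Catsup changed by -3.25 under XBP-1 RNAi, -1.55 in control and -1.04 on the arrays labelled IRE1 RNAi, so its fall was larger than in both (differences -1.70 and -2.20, adjusted p = 0.00105 and 0.00033). GCS2beta did likewise, with -2.63, -1.13 and -0.50, and both differences were called (adjusted p = 0.00788 and 0.00225). Its difference from control was not called without the letter block or without eBayes. Other genes rose on the arrays labelled IRE1 RNAi. The UDP-glycosyltransferase Ugt302C1 went from 0.08, -0.08 and 0.07 to 1.29, 1.35 and 1.19 under XBP-1 RNAi, a rise of 1.25, against 3.92 there (difference -2.67 ± 0.24, adjusted p = 7.18e-06). NTPase changed by 0.25 against 2.58 (difference -2.33 ± 0.28, adjusted p = 0.000295), and Gclc, the catalytic subunit of glutathione synthesis, by 0.93 against 2.35. Gclc was picked after its values were seen, and its difference (-1.42) was not called when replicate A of either XBP-1 RNAi group or replicate B with DTT was left out, nor as deposited, with quantile normalization, without eBayes or without the letter block.

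**Figure D5:**
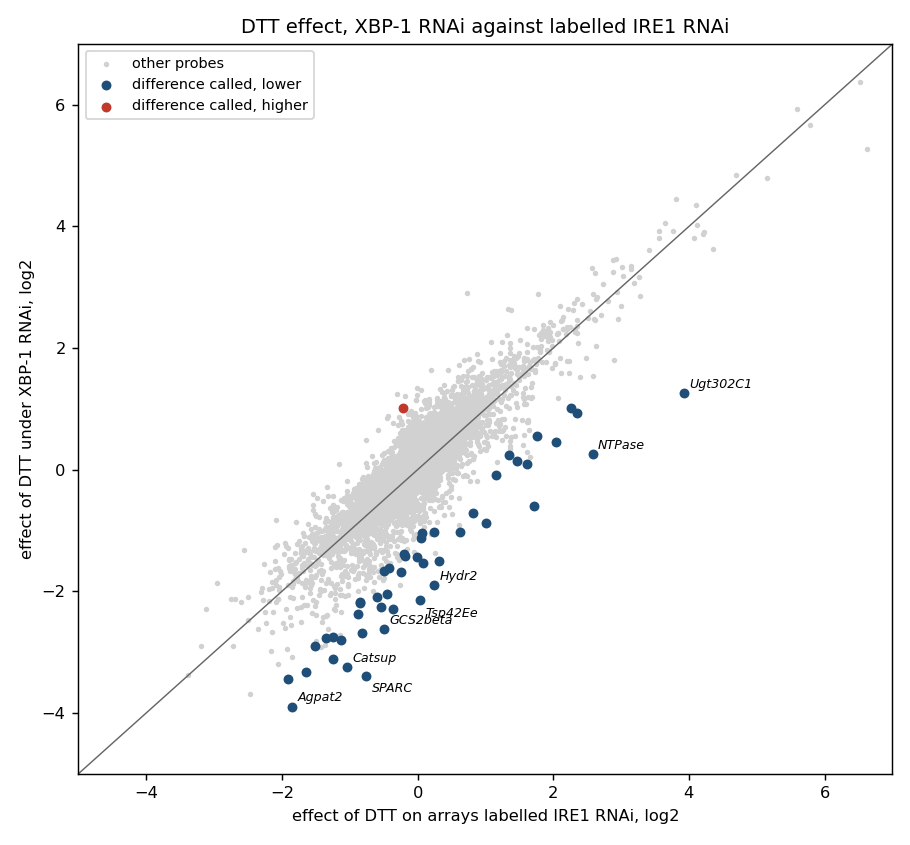
Effect of DTT on arrays labelled IRE1 RNAi (horizontal axis, log2) against that under XBP-1 RNAi (vertical axis, log2), with 1 point per probe and a line where both are equal. Blue points are the 46 probes whose response was called lower under XBP-1 RNAi, red the 1 called higher; names mark the 8 largest differences measured on all 12 arrays.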

How the data were processed

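The deposited table holds log2 ratios (as read here) that the authors normalized in the NOMAD database, per the labels, who dropped visibly defective spots, those less than 1.5-fold above background and those whose channels had an R2 under 0.5. Scanner intensities were not used; precision is limited by array number and by missing spots (18.8% of cells).

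Probe numbers were read as CG numbers: of 7257 probes, 6683 were found by locus tag and 457 by synonym in the RefSeq table of assembly Release 6 plus ISO1 MT; 107 matched several genes, 10 none, and both were left unnamed. Arrays were centred on their medians. limma 3.58.1 (R 4.3.3) fitted 1 model to all 18 arrays with DTT, RNAi arm, their interaction and the letter as a block, followed by eBayes, for probes that had 2 or more values in every group compared. Adjusted p-values are Benjamini-Hochberg within a comparison, 2-sided. Deviations from group means correlated between same-letter arrays of XBP-1 RNAi by 0.384 (A), 0.352 (B) and 0.23 (C). Over all 45 same-letter pairs of groups they ran from 0.042 to 0.708, with 1 pair, between arms, not above 0.1, and over different letters from -0.662 to 0.316. Deviations cancel out within each group, so positive same-letter values force different-letter values downward, and that contrast is no separate support for pairing. The letter was taken to pair arrays within an arm, less surely between arms, though the model used the same letter terms for all arms. The fit was tested on simulated data for the DTT effect under XBP-1 RNAi only, not for the differences between arms.

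Named genes are the 12 largest rises and 12 largest falls measured on all 6 arrays with one direction in all letters, the 4 called members of each of 30 lists with the largest change, 6 fixed genes (Xbp1, Ire1, PEK, Atf6, crc and Hsc70-3), and up to 8 called genes measured on all 12 arrays in each direction of each difference between arms. Other genes named were chosen after their values were seen. The comparison and the lists were chosen with earlier results of these data known. Complexes within lists were chosen after values were seen, and the name pattern for cytochromes P450 was corrected then to leave out cyclophilins. Alternatives were other scaling, no or other blocks, no eBayes, other filters and thresholds, and leaving out 1 array at a time. The arrays left out were the 6 of XBP-1 RNAi and replicate A with DTT labelled IRE1 RNAi, so no control array was. The alternatives for XBP-1 RNAi against control without DTT were chosen after seeing the data.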

Additional observations from a re-analysis of the deposited data

Results flagged for a closer look

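These genes were singled out because the effect of DTT under XBP-1 RNAi differed from that in another arm by limma's interaction term, with adjusted p under 0.05 and at least 2-fold. They are the largest such differences among genes measured on all 12 arrays of a comparison, and each adjusted p stands with limma's values in the account above or in the next sentences. Against control, the higher responses were those of msi (2.15), Cam (2.12), Thor (1.85), Rac2 (1.81), Akap200 (1.78), be (1.78), CG3348 (1.77) and Swip-1 (1.76). The lower responses were those of scf (-2.79), CG2004 (-2.73), Ero1L (-2.59), Trp1 (-2.50), Pdi (-2.45), Gp93 (-2.41), Gfat2 (-2.38) and sel (-2.36). Limma's adjusted p for the genes not given one above was 0.0464 for Akap200, 0.00169 for be, 0.00323 for Swip-1 and 0.000651 for Gp93.

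Against the arrays labelled IRE1 RNAi, the lower responses were those of Ugt302C1 (-2.67), SPARC (-2.63), NTPase (-2.33), Catsup (-2.20), Tsp42Ee (-2.19), Hydr2 (-2.14), GCS2beta (-2.13) and Agpat2 (-2.05). Limma's adjusted p was 0.00225 for GCS2beta and 0.0244 for Agpat2. In these arrays the Ire1 probe did not stand lower than in control.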

How the results depend on the processing

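Of the effects of DTT and differences of named genes, 182 were recomputed. Of these, 144 kept their direction and call under all alternatives in which they could be tested, and none changed direction. Some alternatives left values untested: with a value required on every array, 124 of 142 DTT effects were tested. No control array was left out, and of those labelled IRE1 RNAi only replicate A with DTT was. The ranges below therefore do not show how far the differences from control rest on any 1 control array. Without DTT, control replicate C held 4960 values, and r between the control arrays was 0.697 to 0.8. The counts for the DTT effect under XBP-1 RNAi were 1332 higher and 1213 lower by adjusted p alone, and 376 to 556 higher and 436 to 599 lower with 1 array left out. Of the difference from control, the 122 higher became 27 as deposited, 56 with quantile normalization, 13 with no replicate block and 26 without eBayes, and ran from 54 to 125 with 1 array left out. The 217 lower became 69 with no replicate block and 131 without eBayes, and ran from 153 to 222. Of the difference from the arrays labelled IRE1 RNAi, the 46 lower became 12 as deposited, 8 with no replicate block and 9 without eBayes, and ran from 22 to 38. The 1 higher became 0 with quantile normalization, no replicate block, blocks within each arm, no eBayes, a value required on every array, or 1 value per group, and 0 to 1 with 1 array left out. Without DTT, 2 probes were lower under XBP-1 RNAi than in control as deposited. Besides the losses given in the account of each list, with no replicate block the differences of Akap200, Cam, CG3348, Gfat2 and Swip-1 from control, and of Agpat2 and Tsp42Ee from the arrays labelled IRE1 RNAi, were not called. Without eBayes those of Akap200, Cam, CG3348, msi, Agpat2, Tsp42Ee, GCS2beta and SPARC and the rise of Mcr were not. Causes were not tested. Signal over background was not analysed here, and 1611 probes had too few values to test.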
